A study of Mus musculus with 18 samples.

Results

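The expression of 10 cytokine genes linked to colitis, Il1b, Tnf, Il6, Ifng, Il10, Tgfb1, Il1rn, Il18, Il33 and Il15, was followed in whole mouse colon in the weeks after injury with dextran sulfate sodium (DSS). The genes were a list chosen with earlier results of these data known. They were found by NCBI gene identifier among the 18349 genes of the deposited expression table, and all 10 were present. Levels are in FPKM, a read density that corrects for transcript length and library size, so different genes can be set side by side per length.

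DSS, a polymer added to drinking water that injures the colonic epithelium, was given at 2.5% for 7 days to male C57BL/6 mice of wild-type genotype. Mice of the DSS group (n = 3 libraries) were then gavaged with PBS for 5 weeks. Mice of the WT group (n = 4) had the same DSS course and were gavaged for 5 weeks with Lactobacillus plantarum ZJ316, a lactic acid bacterium, those of the KO group (n = 4) with ZJ316-KO and those of the COM group (n = 4) with ZJ316-COM. Here WT, KO and COM name the bacterial strain and not the mice, and the meaning of KO and COM is left undefined in the labels. Control mice (n = 3) drank water, and the labels mention no gavage for them. No group received a strain without DSS. Every DSS-treated group was also gavaged, so DSS and gavage cannot be told apart in comparisons with Control. The numbered libraries are not linked to single mice, so p-values reflect the variation among these libraries, which may be technical.

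Cytokines are secreted proteins through which immune, epithelial and stromal cells signal to each other. In the inflamed gut, IL-1 beta and TNF are made mainly by activated macrophages and monocytes and induce chemokines and adhesion molecules through NF-kappa B. IL-10 and TGF-beta restrain such responses, TGF-beta also drives matrix deposition, and IL-18, IL-33 and IL-15 are made largely by epithelial and stromal cells. The IL-1 receptor antagonist, encoded by Il1rn, occupies the IL-1 receptor without starting a signal.

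The promoters of 3 of these genes are shown because their behaviour in the colon differed: Il1b was higher after DSS, Il1rn encodes its antagonist, and Il6 was barely detected. RefSeq windows (assembly GRCm38.p6) from 250 bases before to 50 bases after the annotated start were available for 8 members, 11 windows in all. Capitals mark matches to searched motifs, on either strand: kappa B (GGGA, any 2 bases, then TTCC), AP-1 (TGANTCA), C/EBP (TTNNGCAA), STAT (TTCNNNGAA) and the TATA box (TATAAA).
Il1b, chr2:129371090-129371389, minus strand: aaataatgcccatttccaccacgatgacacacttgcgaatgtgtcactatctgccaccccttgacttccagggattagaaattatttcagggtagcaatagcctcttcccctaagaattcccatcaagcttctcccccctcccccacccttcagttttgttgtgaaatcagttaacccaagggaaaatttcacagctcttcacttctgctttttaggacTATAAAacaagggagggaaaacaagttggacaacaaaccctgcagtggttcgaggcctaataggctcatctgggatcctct
Il1rn, chr2:24336610-24336909, plus strand: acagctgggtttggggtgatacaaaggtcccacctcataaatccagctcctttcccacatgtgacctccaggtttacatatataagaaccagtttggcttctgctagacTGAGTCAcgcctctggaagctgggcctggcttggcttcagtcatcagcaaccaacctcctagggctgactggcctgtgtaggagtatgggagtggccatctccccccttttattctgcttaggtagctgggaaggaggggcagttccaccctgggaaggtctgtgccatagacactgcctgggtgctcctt
Il6, chr5:30012864-30013163, plus strand: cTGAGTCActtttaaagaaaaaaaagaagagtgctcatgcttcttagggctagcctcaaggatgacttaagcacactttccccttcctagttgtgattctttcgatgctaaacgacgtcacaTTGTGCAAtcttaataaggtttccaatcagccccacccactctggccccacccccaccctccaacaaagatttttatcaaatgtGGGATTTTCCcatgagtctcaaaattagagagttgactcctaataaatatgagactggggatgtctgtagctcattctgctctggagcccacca
The Il1b window held a TATA box at -31 to -26 from the start, as did those of Tnf at -29 to -24, Ifng at -30 to -25 and 1 of 2 Il33 windows at -29 to -24. The Il6 window held the one kappa B match among the 11 windows, at -44 to -35, together with AP-1 and C/EBP matches. This Il1rn window, at one of 3 annotated starts, held an AP-1 match at -141 to -135. The same motifs occurred in 1.47% (kappa B), 7.81% (AP-1), 10.8% (C/EBP), 8.3% (STAT) and 13.6% (TATA box) of all 32851 RefSeq windows of this length, and the searched letters were absent from the Tgfb1 window. A match describes the sequence only and shows no binding.

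By mean over the 18 libraries the order of levels was Il18 (153.5 FPKM), Il1rn (47.3), Tgfb1 (14.6), Il15 (10.4), Il1b (4.76), Tnf (3.42), Il33 (2.97), Il10 (0.239), Ifng (0.151) and Il6 (0.0617). Il18 lay above Il1rn in all 18 libraries. Il1b, Tnf and Il33 spanned overlapping ranges of 0.52 to 8.91, 1.27 to 6.05 and 1.39 to 6.78 FPKM, and their order is not separated by the spread between libraries. Tgfb1 and Il15 changed places between the groups: Tgfb1 was above Il15 in 15 of 15 DSS-treated libraries and in 0 of 3 Control libraries. In all, 7 members passed the filter of at least 1 FPKM in at least 3 libraries, and Il6, Il10 and Ifng did not.

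**Figure D1:**
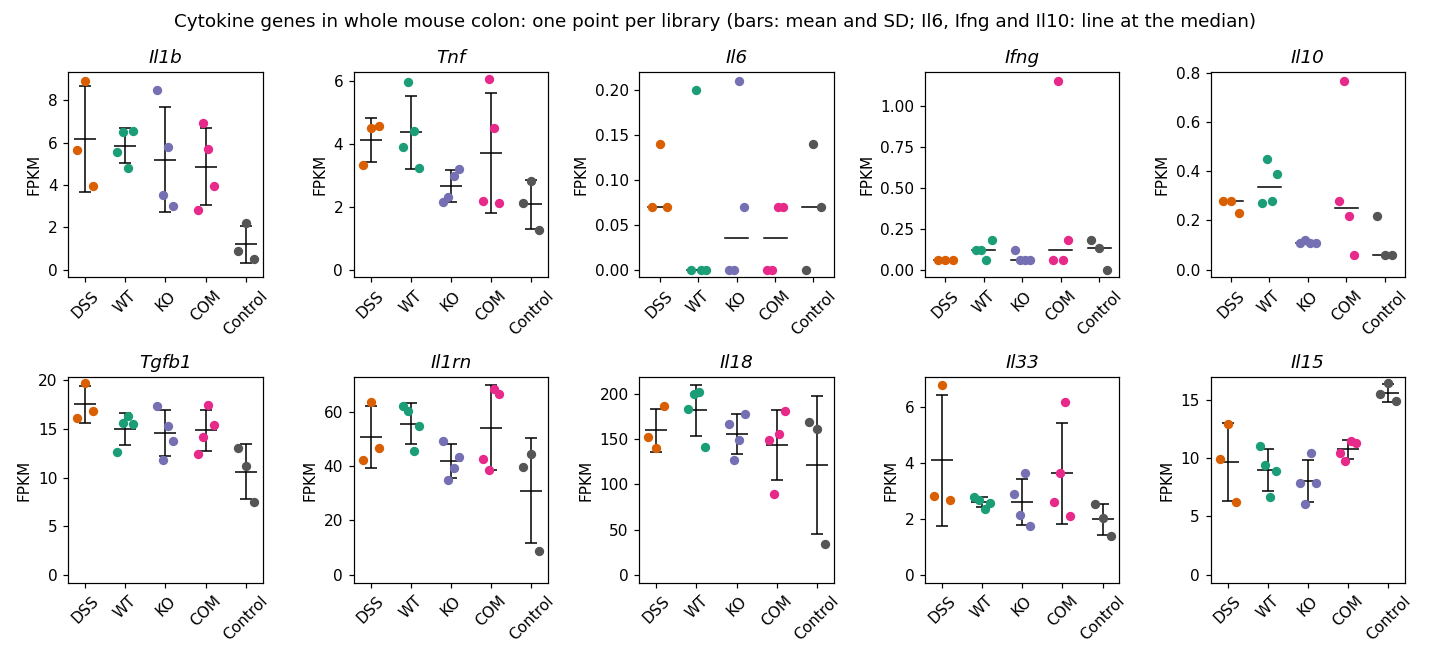
FPKM (vertical axes, linear) of the 10 cytokine genes in each library of the DSS, WT, KO, COM and Control groups. Points are libraries, bars show mean and SD (n = 3 or 4), and for Il6, Ifng and Il10 a line marks the median; Il1b is higher in all 15 DSS-treated libraries than in the 3 Control libraries, and Il15 is lower.

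Some libraries stood apart from others of their group. Control 3 had a mean log2(FPKM + 1) of 1.45 for distal Hox genes, which mark the distal gut, against 2.61 in KO 2 and 3.04 to 4.56 elsewhere. It was the lowest of all 18 libraries in 6 of the 7 members that passed the filter, all but Il15, so the main comparisons with Control are also given without it. Pancreatic acinar genes were high in DSS 1, DSS 3 and KO 3 (mean 7.92 to 10.3, at most 1.44 elsewhere), and squamous epithelium genes in DSS 2, WT 2, WT 4, KO 3 and COM 3 (2.01 to 3.39, at most 1.07 elsewhere). All 12 colonic epithelium markers were detected in every library, with summed levels of 6207 to 23428 FPKM. Library totals spanned 517933 to 558590 FPKM, and the number of reads is unknown.

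Between all 4 DSS-treated groups and Control, Il1b, Tgfb1 and Il1rn rose and Il15 fell. These 4 of the 7 tested members passed at an adjusted p under 0.05 (limma, Benjamini-Hochberg over all 13263 genes), where 21.0% of all genes did, 13.8% upward and 7.16% downward. Without Control 3 the Tgfb1 and Il1rn calls were lost, and those of Il1b and Il15 were kept. The members' median log2 fold change was 0.60, beside 0.04 over all tested genes. Changes here are log2 fold changes of FPKM + 1 ± SE, a scale that understates changes of low genes. In whole tissue, fewer cells of a type and less RNA per cell cannot be told apart.

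Il1b (gene ID 16176, chromosome 2, 129364569 to 129371164, minus strand, GRCm38.p6) encodes IL-1 beta, which signals through the IL-1 receptor and recruits neutrophils. Its level was 5.65, 8.91 and 3.97 FPKM in DSS, 5.54, 6.51, 4.81 and 6.57 in WT, 8.47, 3.52, 5.78 and 3.02 in KO and 2.81, 6.93, 5.70 and 3.97 in COM, against 0.86, 2.19 and 0.52 FPKM in Control. The lowest DSS-treated library, COM 1, lay above the highest Control library, a separation that 4.2% of all tested genes showed in this direction. The mean was 5.48 ± 1.84 FPKM (SD, n = 15) in DSS-treated libraries and 1.19 ± 0.88 FPKM (n = 3) in Control, a rise of 1.59 ± 0.27 (3.01-fold of FPKM + 1, adjusted p = 0.00137). Without Control 3 the rise was 1.36 ± 0.31 (adjusted p = 0.0123). Il1b rose in each of the 4 groups, by 1.73 ± 0.35 in DSS, 1.71 ± 0.33 in WT, 1.49 ± 0.33 in KO and 1.44 ± 0.33 in COM (adjusted p = 0.00543, 0.00262, 0.0190 and 0.0187). Calls within single groups were less firm. Without Control 3 the KO and COM calls were lost, the KO call also without KO 1, and the COM call also without COM 3. The calls in all 4 groups were lost without the squamous-rich libraries (adjusted p = 0.0843 in DSS, 0.057 in WT, 0.109 in KO and 0.121 in COM), and those in DSS, KO and COM in a fit of only the groups compared; the KO and COM calls were also lost without the low-Hox libraries and the KO call without the acinar-rich ones. A non-coding neighbour, Il1bos, overlaps Il1b, and without stated strand use their reads cannot be told apart.

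Macrophage markers were counted in the same comparison. All 11 tested of 12 listed rose between the DSS-treated groups and Control (8 without Control 3), led by the complement gene C1qc at 1.22 ± 0.27. Their summed level was 554 to 633 FPKM in DSS, 497 to 583 in WT, 261 to 459 in KO, 347 to 499 in COM and 103 to 340 in Control. Of 10 neutrophil markers, 6 were tested and 4 rose (2 without Control 3). S100a8, Retnlg and Mmp8 were listed at 0 in all 3 Control libraries, but Mmp8 and Retnlg were low throughout, at most 0.25 and 1.61 FPKM. The mean log2(FPKM + 1) of the 10 neutrophil markers was 1.39 to 2.56 in DSS, 1.73 to 2.44 in WT, 1.28 to 1.73 in KO, 1.39 to 2.57 in COM and 0.21 to 1.01 in Control, without overlap. Their sum overlapped (117 to 336 FPKM in DSS-treated libraries, 1.98 to 345 in Control) and was mostly Ly6g, with a median of 208 FPKM. All 8 fibroblast and all 8 endothelial markers rose, 4 of 10 T and NK cell markers rose and 4 of 6 smooth muscle markers fell. No B cell, squamous, acinar, adipocyte or distal Hox marker was called by limma in this comparison, where 1 distal Hox gene and 0 of the other 4 lists had an unadjusted p under 0.05. The part of these markers in the cytokine results was not tested.

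Tnf (gene ID 21926, chromosome 17, 35199367 to 35202007, minus strand) encodes TNF, which acts with IL-1 beta on endothelium and epithelium. Its level was 3.33, 4.50 and 4.57 FPKM in DSS, 3.89, 5.96, 4.40 and 3.24 in WT, 2.16, 2.31, 2.98 and 3.19 in KO and 2.19, 6.05, 4.51 and 2.12 in COM, against 2.13, 2.82 and 1.27 FPKM in Control. DSS and WT libraries lay above every Control library, as 19.4% and 17.1% of tested genes did, and KO and COM libraries overlapped them. Only the WT group passed the test against Control, at 0.81 (adjusted p = 0.0365), and the call was lost without WT 1, WT 2, WT 3 or Control 3. For all DSS-treated groups together the value was 0.60 ± 0.22 (adjusted p = 0.0610). Without Control 3 it was 0.40 ± 0.25 (adjusted p = 0.313). It passed under rescaling to TPM at 0.73 (adjusted p = 0.0418), under the replicate block at 0.65 (adjusted p = 0.0375), and without COM 1 or COM 4.

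Il6 and Ifng were close to undetected. Il6 (gene ID 16193, chromosome 5, 30013114 to 30019975, plus strand), which encodes a cytokine acting through STAT3, was above 0 in 10 of 18 libraries and at most 0.21 FPKM. It was 0.07, 0.14 and 0.07 FPKM in DSS, 0, 0.20, 0 and 0 in WT, 0, 0, 0.21 and 0.07 in KO and 0, 0, 0.07 and 0.07 in COM, against 0, 0.14 and 0.07 in Control. These non-zero values all lay within 0.011 FPKM of 1, 2 or 3 times a step of 0.0683 FPKM, so no group could be ordered at this depth. For Il6 the exact permutation test of DSS-treated libraries against Control gave a log2(FPKM + 1) difference of -0.01 (two-sided p = 0.882, adjusted p = 1 over 36 tests of the 3 low members). A230098N10Rik overlaps Il6, and their reads likewise cannot be told apart.

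Ifng (gene ID 15978, chromosome 10, 118441046 to 118445894, plus strand) encodes interferon gamma, the T and NK cell cytokine that activates macrophages and antigen presentation. It was 0.06 FPKM in all 3 DSS libraries, 0.12, 0.12, 0.06 and 0.18 in WT, 0.12, 0.06, 0.06 and 0.06 in KO and 0.06, 1.15, 0.06 and 0.18 in COM, against 0.18, 0.13 and 0 in Control. Apart from COM 2, the 16 non-zero values were 1 to 3 steps of 0.0609 FPKM. The exact permutation test of DSS-treated libraries against Control gave 0.05 (two-sided p = 0.831, adjusted p = 1), and without COM 2 the difference was -0.02.

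Il10 (gene ID 16153, chromosome 1, 131019845 to 131024970, plus strand) encodes the anti-inflammatory cytokine IL-10, whose loss causes colitis in mice. It was above 0 in all 18 libraries but reached 0.5 FPKM only in COM 2. Its level was 0.28, 0.28 and 0.23 FPKM in DSS, 0.27, 0.45, 0.28 and 0.39 in WT, 0.11, 0.12, 0.11 and 0.11 in KO and 0.28, 0.77, 0.22 and 0.06 in COM, against 0.22, 0.06 and 0.06 in Control. All 4 KO libraries lay below every WT and every DSS library, as 9.4% and 11.6% of the tested genes did. Il10 values were multiples of a step of 0.0556 FPKM, 2 steps in each KO library and 4 to 8 in the WT and DSS libraries. By the exact permutation test the difference of KO from WT was -0.27 on the log2(FPKM + 1) scale (two-sided p = 0.0286, the smallest that 4 against 4 allows) and failed the correction (adjusted p = 0.686). KO against DSS gave -0.18 (exact two-sided p = 0.0571, the smallest for 4 against 3, adjusted p = 0.686). For all DSS-treated libraries against Control the difference was 0.17 (exact p = 0.0931, adjusted p = 0.720), with 0.14 without Control 3 (exact p = 0.279) and 0.24 without Control 1 (exact p = 0.0441).

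Tgfb1 (gene ID 21803, chromosome 7, 25687002 to 25705077, plus strand) encodes TGF-beta 1, secreted in latent form. Its level was 16.1, 19.7 and 16.8 FPKM in DSS, 12.7, 15.6, 16.3 and 15.5 in WT, 17.3, 11.8, 15.3 and 13.8 in KO and 12.4, 14.2, 17.5 and 15.4 in COM, against 13.1, 11.2 and 7.53 in Control. DSS libraries lay above all Control libraries, as 19.4% of tested genes did, and the strain groups overlapped them. Tgfb1 averaged 15.4 ± 2.12 FPKM (n = 15) in DSS-treated libraries and 10.6 ± 2.81 FPKM (n = 3) in Control, a rise of 0.53 ± 0.13 (adjusted p = 0.0119). By group it rose by 0.70 ± 0.17 in DSS and 0.49 in WT (adjusted p = 0.0125 and 0.0374), and did not pass in KO at 0.44 or COM at 0.47 (adjusted p = 0.122 and 0.0811). Without Control 3 the pooled value was 0.32 ± 0.13 and did not pass (adjusted p = 0.113), and the DSS and WT calls were lost at 0.50 and 0.28 (adjusted p = 0.0502 and 0.210); the DSS call was also lost without DSS 2, and the WT call without WT 2, WT 3, WT 4 or Control 2.

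Il1rn (gene ID 16181, chromosome 2, 24336860 to 24351491, plus strand) encodes the IL-1 receptor antagonist, and in 2 of the 3 Control libraries it lay within the range seen after DSS. Its level was 42.2, 63.7 and 46.5 FPKM in DSS, 62.1, 60.2, 45.6 and 54.9 in WT, 49.4, 34.8, 39.3 and 43.5 in KO and 42.7, 38.7, 68.4 and 66.7 in COM, against 39.8, 44.4 and 8.69 in Control. Only the WT libraries lay wholly above Control, as 17.1% of tested genes did. The pooled rise of 0.95 ± 0.32 (adjusted p = 0.0495) rested on Control 3: without it the value was 0.23 ± 0.19 (adjusted p = 0.478). The call was lost with any of 14 of the 18 libraries left out and in 8 of 10 other alternatives, and no single group passed.

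Because the antagonist competes with IL-1 beta, the ratio of Il1rn to Il1b FPKM was computed in each library, a measure chosen after its components were seen. It was 7.47, 7.15 and 11.7 in DSS, 11.2, 9.24, 9.48 and 8.35 in WT, 5.83, 9.88, 6.81 and 14.4 in KO and 15.2, 5.59, 12 and 16.8 in COM, against 46.3, 20.3 and 16.7 in Control. COM 4 lay just above the lowest Control library, and the other 14 DSS-treated libraries lay below all Control libraries. The ratio of DSS-treated libraries was 0.381 times that of Control (log2 difference -1.39, exact permutation test, two-sided p = 0.0049), which failed correction over 12 comparisons (adjusted p = 0.0588). With each library left out the log2 difference stayed between -1.69 and -0.95. Among the DSS-treated groups no ratio passed, with exact p of 0.400 to 1.

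**Figure D2:**
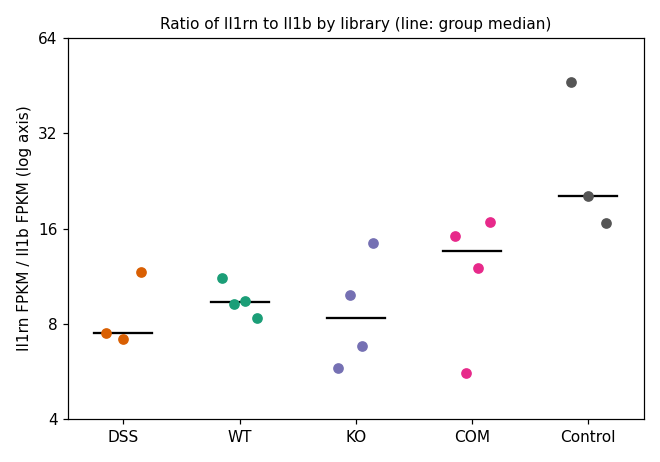
Ratio of Il1rn to Il1b FPKM (vertical axis, log scale) in each library of the DSS, WT, KO, COM and Control groups, with a line at each group's median. The DSS-treated libraries lie between 5.59 and 16.8 and the Control libraries between 16.7 and 46.3.

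Il18 (gene ID 16173, chromosome 9, 50554700 to 50581841, plus strand) encodes IL-18, stored as an inactive precursor in epithelial cells until caspase-1 cuts it. It was 152, 140.4 and 186 FPKM in DSS, 183, 199.5, 202 and 141 in WT, 167, 127, 149 and 177 in KO and 149, 89.5, 155 and 181 in COM, against 169, 161 and 33.8 in Control. Control 3 and COM 2 were the low libraries, and the others overlapped across groups. The pooled value of 0.68 ± 0.34 did not pass (adjusted p = 0.161) and turned to -0.07 ± 0.19 without Control 3. The genes Bco2 and Tex12 overlap Il18 in the annotation, so its reads may include theirs.

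Il33 (gene ID 77125, chromosome 19, 29925113 to 29960718, plus strand) encodes a nuclear cytokine that is released from damaged barrier and stromal cells and binds the receptor encoded by Il1rl1. It was 2.80, 6.78 and 2.67 FPKM in DSS, 2.79, 2.68, 2.35 and 2.57 in WT, 2.89, 2.13, 3.63 and 1.75 in KO and 2.61, 3.63, 6.15 and 2.08 in COM, against 2.51, 2.02 and 1.39 in Control. The highest libraries, DSS 2 and COM 3, were also those with the highest summed squamous epithelium markers, 338 and 317 FPKM, against 9.59 to 182 FPKM in the other 16. The pooled value of 0.46 ± 0.24 did not pass (adjusted p = 0.179) and was 0.28 ± 0.15 without the squamous-rich libraries (adjusted p = 0.262) and 0.31 ± 0.28 without Control 3 (adjusted p = 0.507); the part of squamous tissue in it was not tested further. Gm41832 overlaps Il33.

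Il15 (gene ID 16168, chromosome 8, 82331624 to 82403252, minus strand) encodes a cytokine that maintains intraepithelial lymphocytes and NK cells, and it was the member that fell. Its level was 9.89, 12.9 and 6.26 FPKM in DSS, 11.04, 9.41, 6.64 and 8.89 in WT, 7.85, 6.06, 10.5 and 7.90 in KO and 10.5, 9.75, 11.4 and 11.3 in COM, against 15.5, 16.4 and 14.9 in Control. Every DSS-treated library lay below every Control library, which held for 1.32% of all tested genes in this direction. The mean was 9.35 ± 2.05 FPKM in DSS-treated libraries and 15.6 ± 0.77 FPKM in Control (n = 15 and 3), a log2 fold change of -0.71 ± 0.16 (adjusted p = 0.00663). Without Control 3 it was -0.74 ± 0.19 (adjusted p = 0.0236). Il15 fell in DSS, WT and KO (-0.69, -0.75 and -0.89, adjusted p = 0.0331, 0.0128 and 0.0174) and did not pass in COM (-0.50, adjusted p = 0.121). The DSS call was lost without DSS 1, DSS 3, Control 2 or Control 3, and the KO call was lost without Control 2. Leaving out the acinar-rich libraries kept DSS 2 as the only DSS library, and the value in DSS was then -0.26. Without the squamous-rich libraries the DSS and WT calls were lost (adjusted p = 0.0511 and 0.0512), in a fit of only the groups compared the DSS and KO calls, under the replicate block the DSS call (adjusted p = 0.0581) and without the low-Hox libraries the KO call. Of 12 colonic epithelium markers, 2 fell between the DSS-treated groups and Control, among them the microvillus gene Vil1, which fell by 0.21 on the log2 scale; their part in the fall of Il15 was not tested.

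**Figure D3:**
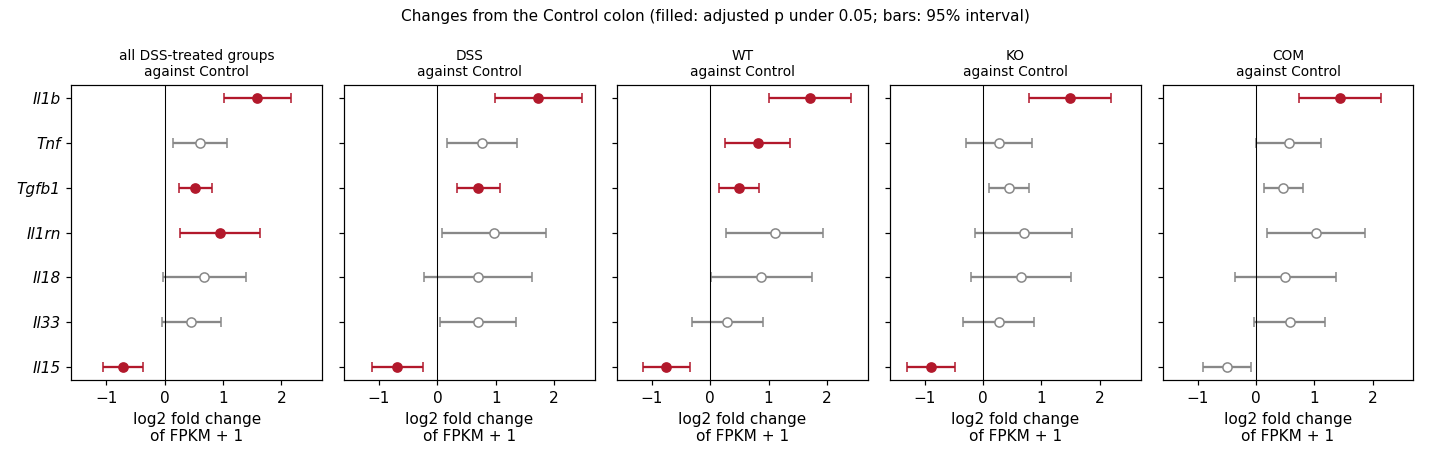
Log2 fold change of FPKM + 1 (horizontal axis) of the 7 tested cytokine genes in all DSS-treated groups and in each of DSS, WT, KO and COM against Control. Bars are 95% intervals and filled points passed an adjusted p under 0.05; Il1b passed in all 5 panels and Il15 in all but COM.

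By group, 3 of the 7 tested members passed against Control in DSS, where 16.9% of all genes did. In WT 4 passed (background 23.1%), in KO 2 (5.14%) and in COM 1 (7.6%). These comparisons share the Control libraries.

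The strain groups were compared with DSS and with each other to ask whether cytokine expression differed after gavage. No member was called by limma in any of the 6 pairwise comparisons among DSS-treated groups or in all strain groups against DSS. The share of all genes called was 0.0% in WT, 0.166% in KO and 0.0151% in COM against DSS, 0.829% in KO against WT, 0.0302% in COM against KO, 0.00754% in COM against WT and 0.0151% in all strain groups against DSS. At an unadjusted p under 0.05 there were 0 members in each of the 3 comparisons of a strain with DSS, in COM against WT and in the pooled one, 1 in KO against WT and 1 in COM against KO. For Il1b, the 95% intervals were -0.71 to 0.68 in WT against DSS, -0.94 to 0.46 in KO against DSS and -0.99 to 0.41 in COM against DSS. These intervals reach differences as large as -0.99 on the log2 scale, so the missing calls do not show equal expression.

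The 2 members past an unadjusted threshold were Tnf and Il15. Tnf averaged 2.66 ± 0.50 FPKM in KO and 4.37 ± 1.16 FPKM in WT (SD, n = 4 each), and its 4 KO libraries lay below all WT libraries, as 9.4% of tested genes did. The difference was -0.54 ± 0.24 (95% interval -1.06 to -0.02, adjusted p = 0.228). KO libraries also lay below all DSS libraries, at -0.49 ± 0.26 (adjusted p = 0.376), as 11.6% of tested genes did. Il15 averaged 10.7 ± 0.79 FPKM in COM and 8.07 ± 1.81 FPKM in KO, a difference of 0.39 ± 0.18 (adjusted p = 0.447), with overlapping libraries. All 7 tested members had values below 0 in KO against DSS and in KO against WT, with medians of -0.26 and -0.22. The 2 comparisons share the KO libraries. All 7 were also below 0 in all strain groups against DSS (median -0.18), as were 5 in COM against DSS and 4 in WT against DSS. The share of all tested genes below 0 is not given, so these counts do not set the members apart. Summed macrophage markers were 261 to 459 FPKM in KO, against 497 to 583 in WT and 554 to 633 in DSS without overlap. In COM they were 347 to 499 FPKM, also below all DSS libraries and overlapping both KO and WT. Lyz2 held much of these sums, with a mean of 282 FPKM in DSS and 226 in WT. No macrophage marker was called by limma in KO against WT or DSS, where Adgre1 came closest (adjusted p = 0.0534 and 0.16). The part of these markers was not tested.

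**Figure D4:**
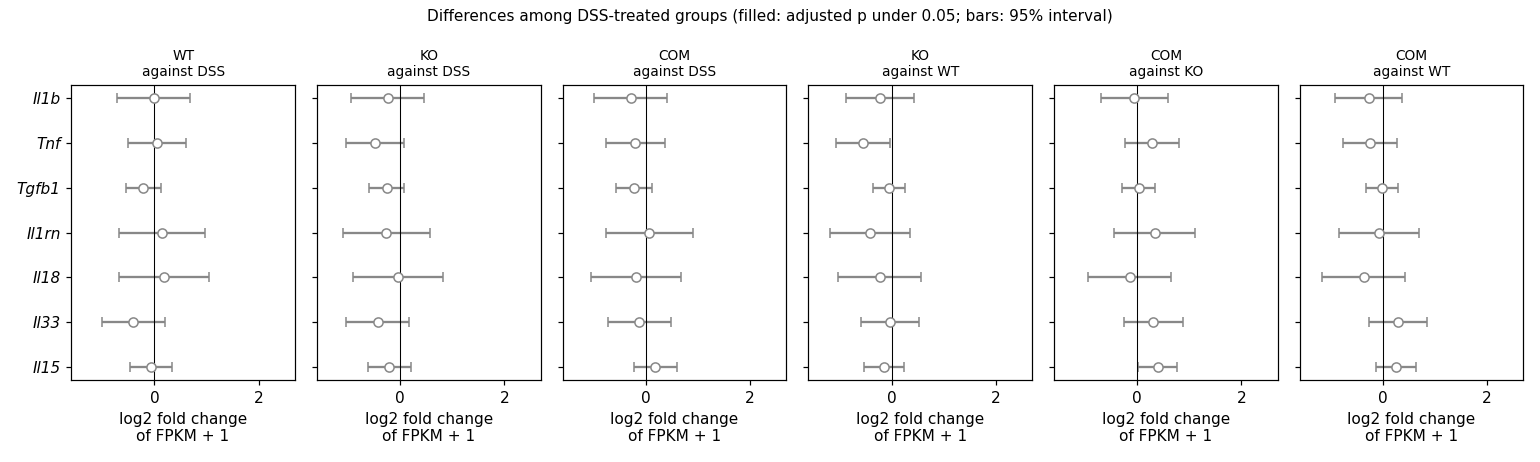
Log2 fold change of FPKM + 1 (horizontal axis) of the 7 tested cytokine genes in the 6 pairwise comparisons among DSS, WT, KO and COM. Bars are 95% intervals and no point passed an adjusted p under 0.05; Tnf in KO against WT, at -0.54, and Il15 in COM against KO, at 0.39, have intervals that leave out 0.

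Genes that act around these cytokines were taken from 12 lists of receptors, processing enzymes, signalling proteins and targets. The lists were chosen with earlier results of these data known, so their counts describe the lists and are no test of them. Between all DSS-treated groups and Control, 48 of the 107 listed genes tested passed, every one of them upward, where 13.8% of all genes were called upward, and 23 of the 48 passed with each library left out in turn. Without Control 3, 20 were lost. Of the genes named below, Il1r2, Tnfrsf1a, Itgb8, Il2rg, Socs3, Cxcl5, Bcl3 and Adam17 were not called without Control 3; the value of Il2rg was then 0.51, while those of Tnfrsf1a, Il1r2 and Itgb8 were 0.31, 0.54 and 0.55. Without other libraries, Tnfrsf1a, Bcl3 and Adam17 were not called without Control 2, and Socs3 was not called without Control 1. Saa3 was not called without Control 1 or Control 2, and Il4ra with any of 10 libraries left out. Among receptors of the IL-1 family 2 of 7 tested rose: Il1rl1, the IL-33 receptor, by 1.10 ± 0.18 (4.88 ± 1.62 FPKM after DSS, 1.75 ± 0.90 in Control, adjusted p = 9.83e-04) and the IL-1 decoy receptor Il1r2 by 0.58. By single group, Il1rl1 passed against Control in DSS, WT and KO (1.30, 1.35 and 1.24). It did not pass in COM (0.53, limma adjusted p = 0.148). Both TNF receptors rose, Tnfrsf1b by 0.998 ± 0.13 (17.0 ± 4.22 FPKM after DSS, 7.87 ± 0.84 in Control) and Tnfrsf1a by 0.29. Of 4 receptor chains for IL-6 and IL-10, 3 rose: Il10ra by 0.76, Il6ra by 0.67 and the shared signal transducer Il6st by 0.47. The ligand genes Il6 and Il10 themselves were too low to test in the same fit.

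Of 9 TGF-beta receptors and activators 8 rose, with Tgfbr2, the ligand-binding receptor, at 0.68 ± 0.10 and the integrin chains Itgb6 and Itgb8, which release latent TGF-beta, at 0.65 and 0.62. Of 10 TGF-beta targets 8 rose, with the collagen genes Col1a2 and Col3a1 at 0.99 ± 0.17 and 0.96 ± 0.19. Fibroblast markers, a list that shares Col1a2 and Col3a1 with these targets, summed to 336 to 635 FPKM after DSS and 157 to 281 FPKM in Control, and their part was not tested. The receptor chains shared by IL-15 and IL-2, Il2rg and Il2rb, rose by 1.03 and 0.82, while the ligand Il15 fell. The other 3 of 5 genes in that list did not pass.

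Targets of IL-1 and TNF had the highest list median, 0.89, and 8 of 12 rose. The neutrophil-attracting chemokine Cxcl5 rose by 2.32 ± 0.60 (10.8 ± 9.69 FPKM after DSS, 0.84 ± 0.69 in Control), the nitric oxide synthase Nos2 by 2.13 ± 0.45, the acute-phase gene Saa3 by 1.71 (2.62 without Control 3) and the iron-binding lipocalin Lcn2 by 1.32 (adjusted p = 0.0133, 0.00452, 0.0300 and 0.00229). Only 4 of the 12 passed without Control 3. Of 7 targets of IL-6 and STAT3, 3 rose, led by Lrg1 at 2.13 ± 0.42, and then by Il4ra and Bcl3 at 0.46 and 0.37. Of 20 adaptors and feedback inhibitors 8 rose, Socs3, the inhibitor of STAT3 signalling, most at 1.29 ± 0.37, and 2 passed without Control 3.

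Among 7 tested processing enzymes, Adam17, which releases TNF from the cell surface, was the one that rose (0.23, adjusted p = 0.00929), and caspase-1 (Casp1) gave -0.17 (adjusted p = 0.159). None of the 15 interferon gamma targets passed in limma, with 3 at an unadjusted p under 0.05 and a median of 0.53. Of 27 other cytokines, 9 passed the filter and 3 rose: Il34 and Csf1, ligands of the macrophage receptor CSF1R, by 1.09 and 0.83, and Il7 by 0.67. Without Control 3, Il34 rose by 0.59 and Il7 by 0.42. The median over all tested genes in this comparison was 0.04.

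**Figure D5:**
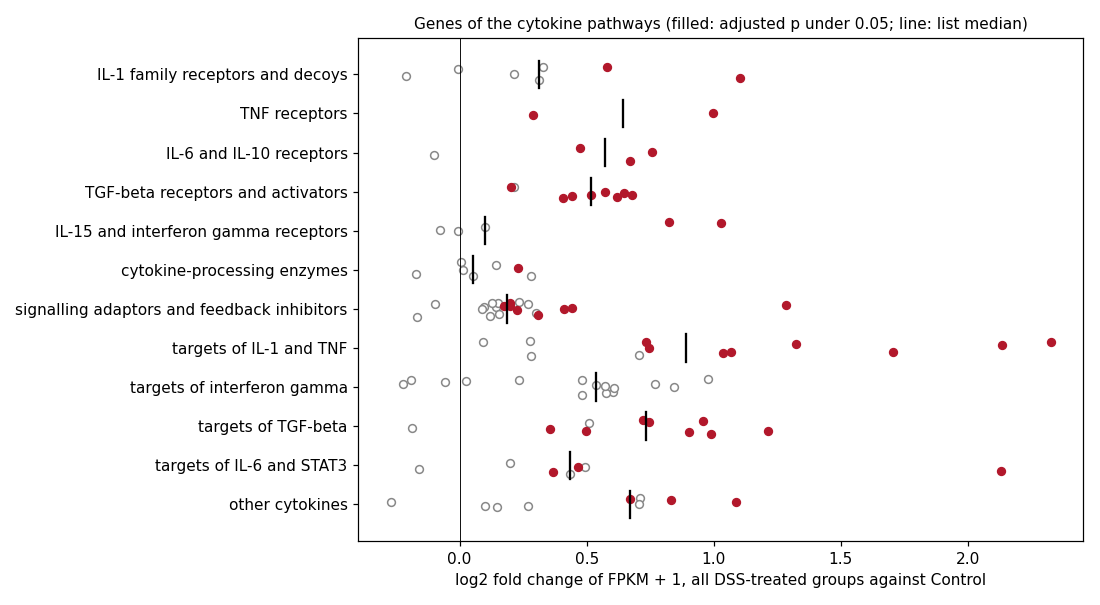
Log2 fold change of FPKM + 1 (horizontal axis) between all DSS-treated groups and Control for each tested gene of the 12 lists (rows). Filled points passed an adjusted p under 0.05 and the vertical line marks the list median; every filled point lies above 0, and the interferon gamma targets have none.

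Among the DSS-treated groups a single listed gene of the 107 tested was called in any comparison. The call was in KO against WT, where 0.829% of all genes were called. Adam17 was 10.8 ± 0.38 FPKM in KO and 13.97 ± 0.41 FPKM in WT (SD, n = 4 each), a log2 fold change of -0.34 ± 0.06 (adjusted p = 0.0314). Its KO libraries lay below all WT libraries, as 9.4% of tested genes did. The call was lost without DSS 1, WT 1, WT 2, WT 3, KO 2, KO 3 or KO 4, under the replicate block (adjusted p = 0.0760), and without the acinar-rich or the squamous-rich libraries.

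For each tested member the 3 genes most like it over the 18 libraries were found by Pearson correlation of log2(FPKM + 1) among 9099 genes, as a description. These values share libraries and the Control difference, so the coefficient over the 15 DSS-treated libraries is given too. Il1b was most like Serping1 (0.95, 0.83 in DSS-treated libraries), Dkk3 (0.93, 0.80) and Il6st (0.92, 0.78). Tnf was most like Serpina3g (0.89, 0.84), Utp15 (0.88, 0.84) and the adhesion molecule Icam1 (0.87, 0.80). Tgfb1 was most like Laptm5 (0.94, 0.84), Msn (0.94, 0.83) and Cytip (0.93, 0.81).

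Il1rn was most like Nt5e (0.97, 0.87), Gpr137b (0.96, 0.90) and Hs3st1 (0.96, 0.87). Il15 was most like Tent5a (0.86, 0.80), Mtarc2 (0.85, 0.77) and Lmnb2 (0.83, 0.75). Il33 was most like Qk (0.86, 0.84), Fabp5 (0.85, 0.85) and Fscn1 (0.83, 0.85), and the coefficient for Fabp5 was 0.38 without DSS 2 and COM 3. Il18 was most like St3gal6 (0.95, 0.74), Rpl14 (0.93, 0.67) and Ggh (0.93, 0.72), which rested on COM 2 and Control 3: without them the coefficients were 0.53, 0.63 and 0.32.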

How the data were processed

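Per the labels' protocols, RNA of whole colon was read on a DNBSEQ machine. What the authors deposited is 1 table of FPKM values for 18349 genes and 18 libraries, and all of its library columns were used. The submitters' processing notes name the build mm10, and for the aligner, counting program, annotation and strand use the entry is: not given in the sources used here. Grouping followed the titles. Genes were matched by NCBI identifier to the RefSeq table of GRCm38.p6, which gave 18230 symbols and the coordinates; 119 identifiers were not matched.

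FPKM is not a count, so values were tested as log2(FPKM + 1) in limma 3.58.1 (R 4.3.3): 1 linear model of 5 groups with a mean-variance trend, for the 13263 genes that reached 1 FPKM in 3 or more libraries. The 12 comparisons were the 10 pairs of groups, the equally weighted mean of the 4 DSS-treated groups against Control, and that of the 3 strain groups against DSS. Tests were two-sided, with Benjamini-Hochberg adjustment over all genes of a comparison. Il6, Il10, Ifng and the ratio of Il1rn to Il1b were compared with exact permutation tests in SciPy 1.17.1, which weight each library equally. The model was tested on simulated data. Depth is unknown, so no counting interval is given.

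All members were named, up to 4 genes per list (called ones with the largest change first, otherwise the smallest p), and the 3 most correlated genes with a mean of at least 5 FPKM for each tested member. The members and lists were chosen with earlier results of these data known. Alternatives were a pseudocount of 0.1, no filter, a filter of 5 FPKM, quantile normalization, TPM rescaling, only the groups compared, no variance trend, a replicate block, a log2 fold threshold of 1, libraries left out singly, and the acinar-rich, squamous-rich or low-Hox (Control 3 and KO 2) libraries left out. Markers named beside a result were counted in the same fit. Some genes that the naming rule takes are not reported here.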

Additional observations from a re-analysis of the deposited data

Results flagged for a closer look

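In 33 tests for a library far from the others of its group (groups of 4, the gap of the highest or lowest library divided by the range, against Dixon's critical value of 0.829), 4 libraries stood out. Chance flags about 1 in 20 such tests of continuous values, a rate that cannot be applied to the low members, where all 4 fell: in 3 of them the other libraries of the group had identical values. Ifng was 1.15 FPKM in COM 2 and 0.06 to 0.18 FPKM in the other COM libraries. It was 0.12 FPKM in KO 1, against 0.06 in the other KO libraries, a difference of 1 step. Il6 was 0.20 FPKM in WT 2 and 0 in the other WT libraries. Il10 was 0.12 FPKM in KO 2 and 0.11 in the other KO libraries, a difference the size of rounding.

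COM 2 was the highest of all 18 libraries for Tnf (6.05 FPKM), Il10 (0.77 FPKM) and Ifng. All 15 of 15 listed interferon gamma targets were also highest there. The share of all genes that were highest in COM 2 is not given, so this count by itself does not set the targets apart. The tryptophan-degrading enzyme Ido1 was 168 FPKM in COM 2 and no more than 21.5 in any of the other 17, the guanylate-binding protein gene Gbp2 271 FPKM and at most 64.4, and the chemokine genes Cxcl9 and Cxcl10 26.6 and 53.2 FPKM and at most 6.08 and 10.0. The targets summed to 2032 FPKM in COM 2 and to 458 to 1047 elsewhere, and T and NK cell markers to 62.1 FPKM in COM 2, 59.4 in WT 4 and 15.5 to 39.3 elsewhere. Il18 was 89.5 FPKM in COM 2, the lowest DSS-treated value. This rests on 1 library, and its source was not tested.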

How the results depend on the processing

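Over 2451 values of single members, listed genes and the ratio under alternatives, 2199 kept direction and side of the threshold, 221 were no longer called, 18 became called and 13 turned sign. Il1b and Il15 in all DSS-treated groups against Control kept their calls in 10 alternatives other than the fold threshold of 1, which Il15 did not reach, and with each of 18 libraries left out. The cause of the changes below was not tested.

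The number of members called in all DSS-treated groups against Control was 4. It was 2 without the squamous-rich and 2 without the low-Hox libraries, 1 with the fold threshold, and 2 to 5 with 1 library left out. In DSS against Control it was 3, with 0 in a fit of only the groups compared and 0 without the squamous-rich libraries. It was 1 with the fold threshold, and 1 to 4 with 1 library left out. Leaving out the acinar-rich libraries kept DSS 2 as the only DSS library, so no count is given for that fit. In WT against Control it was 4, with 2 under quantile normalization, 2 in a fit of only the groups compared, 2 without the acinar-rich, 0 without the squamous-rich and 2 without the low-Hox libraries, 1 with the fold threshold, and 2 to 6 with 1 library left out. In KO against Control it was 2, with 0 in a fit of only the groups compared, 1 without the acinar-rich, 1 without the squamous-rich and 0 without the low-Hox libraries, 1 with the fold threshold, and 1 to 3 with 1 library left out. In COM against Control it was 1, with 2 under TPM rescaling, 0 in a fit of only the groups compared, 2 without the acinar-rich, 0 without the squamous-rich and 0 without the low-Hox libraries, and 0 to 3 with 1 library left out. Among the DSS-treated groups it was 0 in every alternative run.

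With 1 library left out, Il18 ranged from -0.071 to 1.07, -0.059 to 1.09, -0.10 to 1.04 and -0.25 to 0.90 in all DSS-treated groups, DSS, KO and COM against Control, each time lowest without Control 3; without the low-Hox libraries it was -0.048, -0.059, -0.011 and -0.25. Il1rn in KO against Control ranged from -0.021 (without Control 3) to 1.09. In all DSS-treated groups against Control, Il6 ranged from -0.062 to 0.032 (without Control 2) and Ifng from -0.019 (without Control 3) to 0.10; Ifng was -0.02 without COM 2 and -0.012 without the low-Hox libraries.

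Samples with the same replicate number deviated together in 13 of 33 pairs (correlation over 0.1; range -0.47 to 0.39), so the numbers were not taken to pair them. The replicate block gave 2, 3, 2 and 1 members in DSS, WT, KO and COM against Control, 4 in all DSS-treated groups and 0 elsewhere. Low FPKM limits Il6, Il10 and Ifng.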
